A study of Mus musculus with 12 samples.

Results

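Keratinocytes of the paw epidermis of female mice were compared between a high-fat diet (HFD) and a regular diet (RD), as sums of unique molecular identifiers (UMIs, counts of captured transcripts) per mouse. The cells came from the 6 female libraries of a series of 12. A barcode was kept with 500 to 6000 genes, at most 5% mitochondrial UMIs, no UMI of Cd207, Cd74 or Cd3e, and at least 0.5% of its UMIs from Krt1, Krt10, Krt5 and Krt14 together. This left 57068 of 70411 barcodes in the female libraries, out of 140392 in the whole series: 29659 cells from RD mice and 27409 from HFD mice. The mice were wild-type C57BL/6J females that ate a diet with 11% (RD) or 42% (HFD) fat for 10 weeks and were 16 to 18 weeks old at harvest, with 3 mice a diet and 1 library a mouse. Keratinocytes of the 6 male libraries (56388 cells), fed and aged alike, were used only to ask whether the diet difference was the same in both sexes. The diet was given to whole animals, so effects on the keratinocytes themselves and effects through the rest of the body cannot be told apart.

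The epidermis is renewed from a basal layer of dividing keratinocytes that make Krt5 and Krt14. Cells that leave this layer stop dividing, switch to Krt1 and Krt10, and later build the cornified envelope, a shell of crosslinked proteins such as loricrin, involucrin and the Sprr and Lce families, to which ceramides are bound. The glabrous skin of the paw has a thick cornified layer, and its keratinocytes also secrete protease inhibitors and antimicrobial proteins.

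Between 8171 and 11777 cells a library were kept, with 106982080 to 139337946 UMIs a library and a median of 8979 to 12473 UMIs a cell. Cd207, Cd74 and Cd3e were at 0 by construction, and this filter removed 5.31 to 10.5% of the barcodes that had passed the gene and mitochondrial limits. Krt1, Krt10, Krt5 and Krt14 made up 2.16 to 2.52% of the summed UMIs. Xist stood at 710.3 to 1024 CPM (UMIs of a gene per 1e+06 UMIs of its library) in these libraries and at no more than 0.0495 CPM in the male ones, so every library matched its sex label. Pairs of female libraries shared 16 to 40 kept barcodes. HFD replicate 2 stood apart: 2.63% of its summed UMIs were mitochondrial against 1.98 to 2.12% in the others, and it lay at 15.7 on the second principal component (26.3% of the variance) against -10.1 to 5.21. The first component (41.5%) put the 3 RD libraries at -13.1 to -9.35 and the 3 HFD libraries at 5.86 to 13.7.

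The diet question was first asked of all kept keratinocytes together. Of 17472 genes tested, 630 (3.61%) passed an adjusted p of 0.05 in edgeR's quasi-likelihood test, 266 (1.52%) higher and 364 (2.08%) lower on HFD, while the median difference over all genes tested was 0.01 on the log2 scale and 48.4% of the genes tested lay below 0. These shares are the background for the counts in each gene list, and no list was tested as a set. Lists and members were chosen with earlier results of these data known, so counts above the background are a description. At an unadjusted p under 0.05 there were 3807 of the 17472 genes, the background for such counts below. The 3 RD and 3 HFD libraries did not overlap for any of the 630, and did not overlap for 4844 of all genes tested (27.7%). The differences were mostly small: 182 of the higher and 301 of the lower genes differed by less than 1.5-fold, and 22 and 16 by 2-fold or more. Leaving out a library also makes its group smaller, and these effects were not told apart. The count changed with the library left out. It was 1 without RD replicate 1, 0 without RD replicate 2 (edgeR, 2913 genes at an unadjusted p under 0.05), 11 without RD replicate 3 and 5 without HFD replicate 3, but 605 without HFD replicate 1 and 1150 without HFD replicate 2, of which 380 and 592 were among the 630. In each of these 6 fits all 630 genes kept their direction and an unadjusted p under 0.05. The 630 were chosen from the same libraries, so this is a description. Of the 68 called genes named in this text, 1, 0, 11, 4, 47 and 62 passed in these fits, in the same order. With DESeq2 1462 of 17472 genes were called, and with a limit of 2% on the 4 keratins 1113 of 15397, so the list counts under these settings stand against larger backgrounds. Every count of called genes given for a list is 0 without RD replicate 2. Adjusted p-values below are from this edgeR test over all genes, values per library are CPM in the order of the replicate numbers, and errors are SDs over the 3 libraries of a diet (n = 3).

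**Figure D1:**
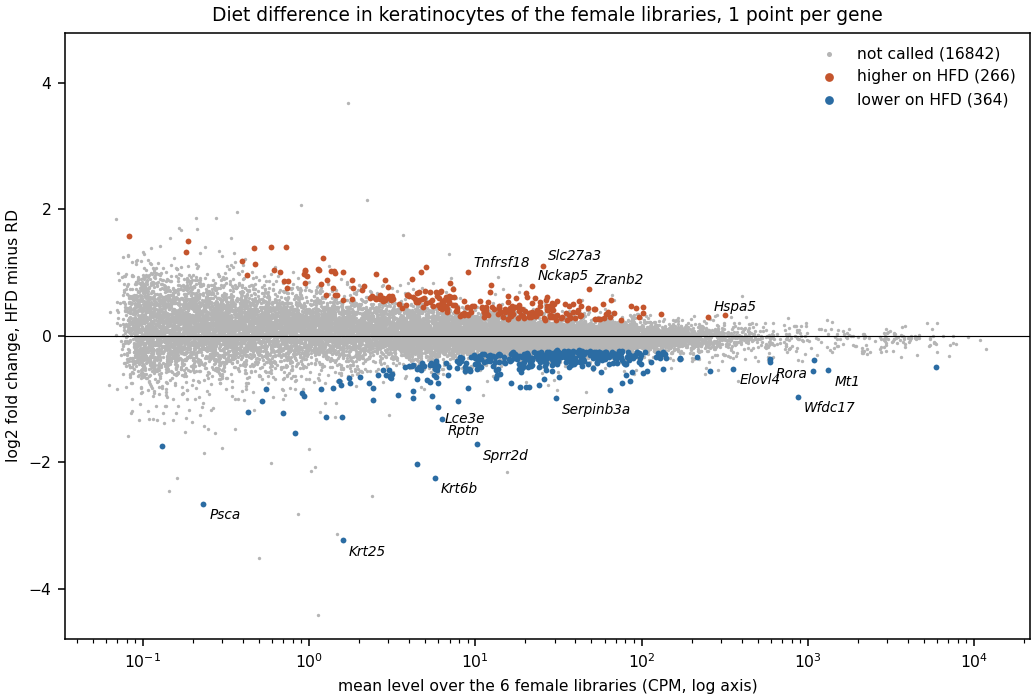
Mean level over the 6 female libraries (CPM, log axis) against the log2 fold change HFD minus RD, 1 point a gene. Coloured points are the 266 genes higher and the 364 lower on HFD at an adjusted p under 0.05, and most of the 630 lie within 1 log2 unit of 0.

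Of 59 listed genes of the cornified envelope 54 were tested, 8 fell on HFD (against 2.08% of all genes), none rose, and 42 lay below 0, with a list median of -0.35 on the log2 scale. With a limit of 2% on the 4 keratins 36 of 52 lay below 0, with a median of -0.18. The summed level of the list was 5753 to 6435 CPM on RD and 6511, 4197 and 5537 CPM on HFD, so HFD replicate 1 lay above every RD library and HFD replicate 2 was the lowest of all. The 8 were the small proline-rich genes Sprr2b, Sprr2d and Sprr2i, the late cornified envelope genes Lce3d, Lce3e and Lce3f, the repetin gene Rptn and the desmocollin gene Dsc1. All but Dsc1 lie in the epidermal differentiation complex of chromosome 3, with Rptn at chr3:93393699-93399442, GRCm38, plus strand and Sprr2d at chr3:92339140-92340873, GRCm38, plus strand.

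Rptn, a precursor of the envelope with S100-like calcium-binding sites, stood at 8.98, 12.5 and 5.50 CPM on RD and 3.96, 2.99 and 3.85 CPM on HFD. Its mean went from 9.01 ± 3.52 to 3.60 ± 0.532 CPM (log2 change -1.32, SE 0.26, adjusted p = 0.0323). Sprr2d, whose product is crosslinked into the envelope, had 16.6, 23.2 and 7.35 CPM on RD and 6.24, 4.32 and 3.72 CPM on HFD (log2 change -1.72, SE 0.36, adjusted p = 0.0406). In both genes RD replicate 3 was the lowest RD library and came close to the highest HFD library. Lce3e had 6.69, 10.3 and 7.74 CPM on RD and 5.41, 3.14 and 2.67 CPM on HFD (log2 change -1.13, SE 0.25, adjusted p = 0.0468). Dsc1, the desmosomal cadherin of the upper layers, had 121, 119.8 and 128 CPM on RD and 92.1, 67.2 and 85.3 CPM on HFD (log2 change -0.59, SE 0.11, adjusted p = 0.0257). For Dsc1 the 3 RD libraries lay within a narrow range and HFD replicate 2 was the lowest. Sprr2i was at -2.02, Lce3d at -1.03, Sprr2b at -0.80 and Lce3f at -0.74 on the log2 scale.

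Other envelope genes did not pass. Sprr2f had the lowest value of the list, -4.42 (adjusted p = 0.126), Sprr2e was at -2.53 (adjusted p = 0.0834), Lce3a at -2.15 (adjusted p = 0.148) and Flg2 at -0.85 (adjusted p = 0.141). The corneodesmosin gene Cdsn was at -0.54 (adjusted p = 0.0556) and the filaggrin protease gene Casp14 at -0.49 (adjusted p = 0.0699). The 14 tested Lce1 genes, of the same family and complex, ran from -0.41 (Lce1m) to 0.14 (Lce1l), none passing. Sprr2 and Lce3 copies are alike in sequence, so the share of reads of each member is uncertain. Without HFD replicate 1 the list had 13 lower genes, without HFD replicate 2 it had 6, without RD replicate 3 it had 4, and without HFD replicate 3, RD replicate 1 or RD replicate 2 it had 0.

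Among 22 listed keratins, all tested, Krt6b fell and Krt8 rose, against 3.61% called either way over all genes. Krt25, a keratin outside this list that was also lower on HFD, is given below with the interactions. Krt6b (chr15:101676023-101680287, GRCm38, minus strand), a keratin of stressed and of thick epidermis, had 7.47, 15.8 and 4.96 CPM on RD and 2.20, 2.54 and 1.2 CPM on HFD, the largest fold difference among the leading genes (4.73-fold lower, log2 change -2.24, SE 0.42, adjusted p = 0.0287). The RD libraries spread widely around their mean of 9.41 ± 5.68 CPM, and none came near the HFD mean of 1.98 ± 0.694 CPM. Reads of Krt6b may be split with its near-copy Krt6a, which was at -0.09 (adjusted p = 0.828). Krt8, a keratin of simple epithelia, was low throughout, at 2.10, 2.08 and 2.09 CPM on RD and 2.73, 3.65 and 3.43 CPM on HFD (log2 change 0.64, SE 0.13, adjusted p = 0.0373). Krt15, a basal keratin, was at 0.63 (adjusted p = 0.0623). A list of 23 other desmosome and adherens junction genes, which does not hold Dsc1, had no call (edgeR, 4 at an unadjusted p under 0.05, against 2 lower with DESeq2 and 2 with a limit of 2% on the 4 keratins), with Pkp1 at -0.34 (adjusted p = 0.0722) and Dsp at -0.25 (adjusted p = 0.107).

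Of 29 listed antimicrobial and alarmin genes 24 were tested, 4 fell (Serpinb3a, Serpinb3c, Serpinb3d and Wfdc12), none rose and 22 lay below 0, with a median of -0.56, against 2.08% lower over all genes. Outside this list, 2 neighbouring genes of secreted proteins were among the leading lower genes. Wfdc17 (chr11:83703991-83706268, GRCm38, plus strand), which codes for a secreted protein with a whey acidic protein domain, had 1112, 1117 and 1237 CPM on RD and 533, 583 and 662 CPM on HFD (1155 ± 70.9 against 593 ± 64.9 CPM, log2 change -0.96, SE 0.09, adjusted p = 0.0130). Its neighbour Wfdc18 (chr11:83709015-83711348, GRCm38, plus strand) had 76.5, 78.3 and 94.3 CPM against 46.6, 40.9 and 49.5 CPM (log2 change -0.86, SE 0.10, adjusted p = 0.0145). In both genes every HFD library lay well below every RD library. Wfdc12, a protease inhibitor of the same fold, had 94.2, 93.9 and 97.2 CPM against 51.5, 48.7 and 70.2 CPM (log2 change -0.74, SE 0.12, adjusted p = 0.0225). Serpinb3a, an inhibitor of serine and cysteine proteases, had 35.3, 48.4 and 38.6 CPM against 24.6, 17.2 and 19.9 CPM (log2 change -0.99, SE 0.14, adjusted p = 0.0203). Serpinb3c and Serpinb3d were at -1.29 and -1.29, while Serpinb3b was at -0.26 (adjusted p = 0.279). The Serpinb3 genes are close copies and their reads may be shared, so their calls in the count of 4 may not be independent. The psoriasin gene S100a7a was at -1.77 (adjusted p = 0.0645), and the calprotectin subunit genes S100a8 and S100a9 at -0.70 (adjusted p = 0.471) and -0.85 (adjusted p = 0.416). Without HFD replicates 1, 2 and 3 the list had 6, 4 and 1 lower genes, and 0 without any RD library.

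The other leading genes lower on HFD were Psors1c2, S100a3, Skint1, Angptl2 and Rbm20. Skint1, an immunoglobulin superfamily gene of thymic epithelium and keratinocytes needed for epidermal gamma delta T cells, had 23.6, 25.6 and 27.3 CPM on RD and 17.6, 11.9 and 14.3 CPM on HFD (log2 change -0.80, SE 0.13, adjusted p = 0.0221). Angptl2, a secreted angiopoietin-like protein, had 31.0, 32.9 and 27.3 CPM against 16.3, 18.6 and 18.3 CPM (log2 change -0.78, SE 0.08, adjusted p = 0.0130). S100a3, a calcium-binding gene, was at -0.80, the splicing regulator gene Rbm20 at -0.75 and Psors1c2 at -0.96 (adjusted p = 0.0250, 0.0260 and 0.0490).

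**Figure D2:**
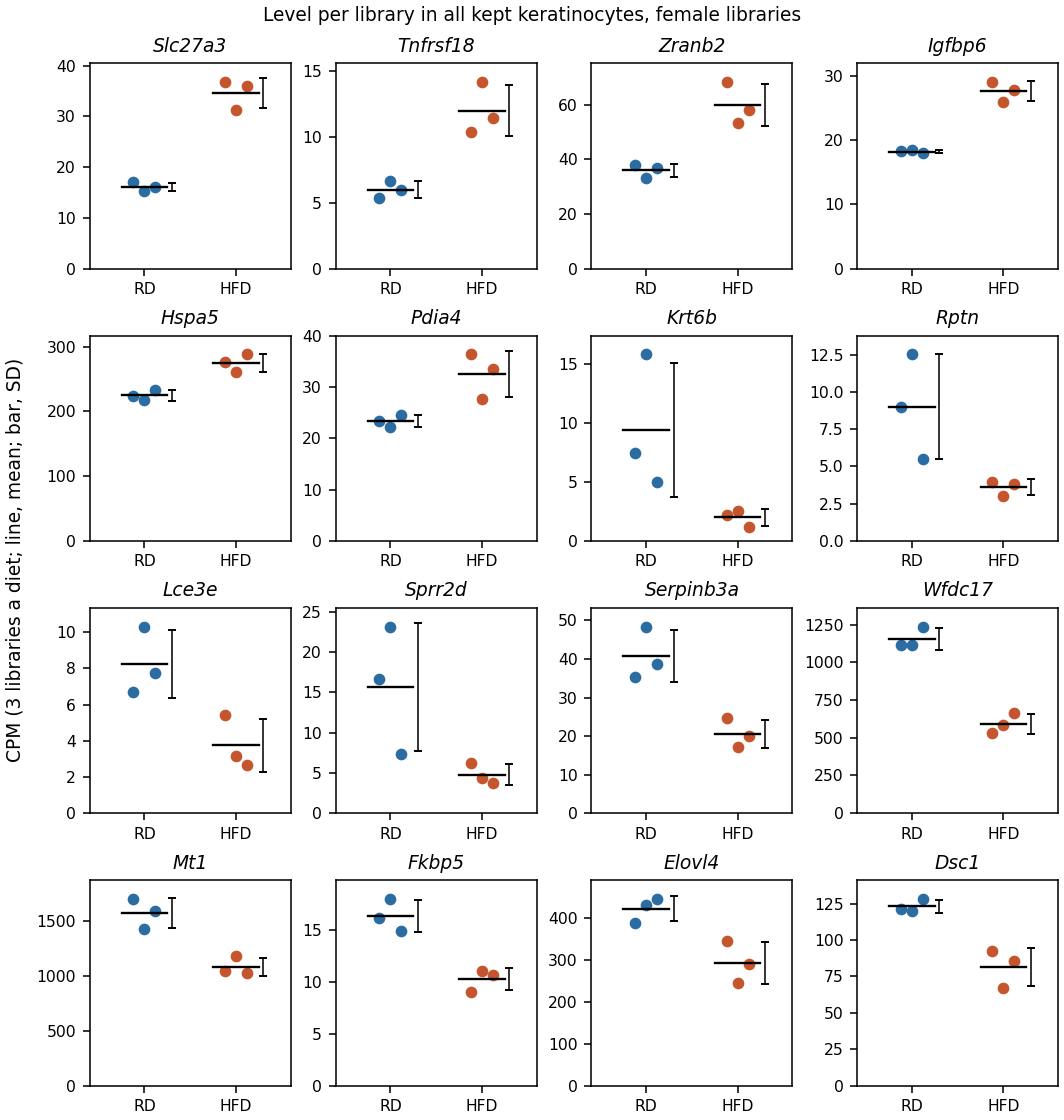
CPM of 16 called genes in each female library, RD and HFD side by side (3 libraries each), with the mean and SD, each panel on its own axis. The diets do not overlap in any panel, and RD replicate 2 stands above the other RD libraries for Krt6b, Rptn and Sprr2d.

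Of 23 tested genes for ceramides and barrier lipids, 3 fell (Alox12b, Pnpla1 and Cyp4f39), none rose and 20 lay below 0, with a median of -0.22, against 2.08% lower over all genes. None of the 3 passed with both keratin classes at equal UMIs, an alternative described below. These 3 act on the omega-hydroxylated ceramides that coat the envelope: Cyp4f39 in the hydroxylation of very long fatty acids, Pnpla1 in the transfer of linoleate and Alox12b in its oxidation. Cyp4f39 had 62.6, 70.5 and 64.4 CPM on RD and 54.2, 48.0 and 49.7 CPM on HFD (log2 change -0.38, SE 0.07, adjusted p = 0.0275). Pnpla1 had 25.2, 28.4 and 27.7 CPM against 21.8, 19.8 and 21.4 CPM (log2 change -0.37, SE 0.07, adjusted p = 0.0290). Alox12b had 24.9, 25.2 and 24.9 CPM against 21.1, 15.3 and 17.6 CPM (log2 change -0.47, SE 0.10, adjusted p = 0.0450). The RD libraries of these genes were close together and all HFD libraries were lower. The ceramide synthase gene Cers3 was at -0.38 (adjusted p = 0.0547). Without HFD replicate 1 and HFD replicate 2 there were 7 and 4 lower genes in the list, and 0 without any other library.

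Fatty acid synthesis and desaturation genes had 3 lower of 24 tested (Fasn, Elovl4 and Me1), none higher, against 2.08% lower over all genes, and a median of -0.09. The count was 0 with both keratin classes at equal UMIs, and 1 with median-ratio size factors or with up to 10% mitochondrial UMIs. Elovl4, the elongase of the very long fatty acids used in barrier ceramides, had 388, 430.3 and 445 CPM on RD and 344, 244 and 290.4 CPM on HFD (log2 change -0.52, SE 0.12, adjusted p = 0.0469). Fasn, the fatty acid synthase, had 46.4, 46.0 and 42.8 CPM against 37.3, 28.7 and 33.6 CPM (log2 change -0.44, SE 0.09, adjusted p = 0.0382). Me1, which supplies NADPH, had 53.2, 57.4 and 54.2 CPM against 44.7, 33.8 and 43.0 CPM (log2 change -0.44, SE 0.10, adjusted p = 0.0464). HFD replicate 2 was the lowest library for these 3 genes and HFD replicate 1 the highest HFD library.

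Of 25 cholesterol synthesis and uptake genes, 21 lay below 0 (median -0.30) against 48.4% of all genes, but Srebf2 alone passed, against 3.61% called over all genes. With DESeq2 4 genes were lower, and 6 with a limit of 2% on the 4 keratins. Srebf2, the transcription factor of this pathway, had 126, 138 and 127 CPM on RD and 109, 93.5 and 92.0 CPM on HFD (log2 change -0.41, SE 0.08, adjusted p = 0.0304). The synthesis genes Hmgcs1 and Sqle were at -0.40 (adjusted p = 0.126) and -0.34 (adjusted p = 0.189). This list moved with single libraries: 11 genes fell without HFD replicate 1, 2 without HFD replicate 2 and 0 without any of the other 4. Its summed level was 1694 to 1733 CPM on RD and 1709, 1265 and 1424 CPM on HFD, so HFD replicate 1 lay within the RD range.

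Lipid uptake and storage genes had 2 lower of 16 tested, against 2.08% of all genes. These were the triglyceride lipase gene Pnpla2 (log2 change -0.32, SE 0.07, adjusted p = 0.0383) and Gpam, which codes for the first acyltransferase of glycerolipid synthesis. Gpam had 16.2, 15.6 and 16.9 CPM on RD and 10.7, 11.4 and 11.7 CPM on HFD (log2 change -0.53, SE 0.07, adjusted p = 0.0161), so each diet was tight and the diets were well apart. Slc27a3, a gene of the fatty acid transport family that is outside the lipid lists, was higher on HFD and is given below. No gene of 30 passed among PPAR and LXR targets and fatty acid oxidation (edgeR, 8 at an unadjusted p under 0.05, median 0.13, against 3 higher and 1 lower with DESeq2), where the lipid droplet gene Plin2 was at 0.38 (adjusted p = 0.0648). With a limit of 2% on the 4 keratins 1 of 29 was higher and 2 were lower, and with up to 10% mitochondrial UMIs 1 was higher. Among 22 glucose uptake and glycolysis genes, the phosphofructokinase gene Pfkl rose (log2 change 0.32, SE 0.06, adjusted p = 0.0270) and Pdk1, the kinase that restrains pyruvate dehydrogenase, fell (log2 change -0.38, SE 0.05, adjusted p = 0.0194), against 3.61% called either way over all genes. In insulin and IGF signalling 1 of 25 tested genes rose and none fell, near the background of 3.61%. This was Igfbp6, a binding protein of insulin-like growth factor 2, with 18.3, 18.5 and 18.0 CPM against 29.1, 26.1 and 27.9 CPM (log2 change 0.60, SE 0.06, adjusted p = 0.0130).

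Of 11 glucocorticoid targets 3 fell, Mt1, Mt2 and Fkbp5, and none rose (median -0.22), against 2.08% lower over all genes. Mt1 and Mt2, neighbouring genes of chromosome 8, code for metallothioneins, which bind zinc and copper and respond to metals and glucocorticoids. Mt1 had 1707, 1427 and 1599 CPM on RD and 1043, 1183 and 1025 CPM on HFD (log2 change -0.54, SE 0.09, adjusted p = 0.0236). Mt2 had 1405, 1192 and 1230.1 CPM against 851, 953 and 790.2 CPM (log2 change -0.56, SE 0.09, adjusted p = 0.0236). HFD replicate 2 was the highest HFD library in both, and reads may be shared between the copies. Fkbp5, a co-chaperone of the glucocorticoid receptor, had 16.1, 18.0 and 14.9 CPM against 9.05, 11.1 and 10.7 CPM (log2 change -0.67, SE 0.10, adjusted p = 0.0203). The 3 genes also passed without HFD replicate 1 or HFD replicate 2, and none of the list passed without any other library.

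The 250 bases before the RefSeq start of Mt1 and Mt2 are shown because the pair moved together and because metal response elements are well known control sites of metallothioneins. Capitals mark matches to the core of this element (TGCACNC or TGCGCNC, either strand, with no overlap between matches). At least 1 match occurred in 21.4% of 32851 promoter windows of that length, and 3 or more, as before Mt2, in 1.26%. A match describes the letters and was not tested as a site, and matches outside the windows were not counted. The windows are chr8:94178839-94179088 for Mt1 and chr8:94172368-94172617 for Mt2, both on the plus strand of GRCm38.p6.
Mt1: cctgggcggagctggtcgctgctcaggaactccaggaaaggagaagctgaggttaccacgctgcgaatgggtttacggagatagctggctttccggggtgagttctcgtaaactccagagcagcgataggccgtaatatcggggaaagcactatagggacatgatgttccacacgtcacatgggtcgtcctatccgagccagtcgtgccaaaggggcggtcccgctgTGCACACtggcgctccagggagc
Mt2: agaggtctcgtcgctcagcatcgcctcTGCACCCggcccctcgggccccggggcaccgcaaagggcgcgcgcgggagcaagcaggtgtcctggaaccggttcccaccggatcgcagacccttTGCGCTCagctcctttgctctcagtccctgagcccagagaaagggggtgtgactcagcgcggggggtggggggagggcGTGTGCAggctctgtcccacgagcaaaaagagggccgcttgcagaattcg

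Circadian clock genes had 2 lower of 19 tested and none higher, against 2.08% lower over all genes, 1 lower with both keratin classes at equal UMIs, and 4 lower with DESeq2 or with a limit of 2% on the 4 keratins. Rora, an orphan nuclear receptor of the clock loop, had 659.6, 681 and 686 CPM on RD and 546, 531 and 443 CPM on HFD (log2 change -0.42, SE 0.09, adjusted p = 0.0394). Hlf, a PAR-bZIP factor under clock control, had 104, 96.3 and 113 CPM against 58.6, 71.1 and 81.6 CPM (log2 change -0.57, SE 0.11, adjusted p = 0.0350). The hour of harvest is not given in the sources used here. Of 26 oxidative stress genes 3 fell and none rose, against the same 2.08%. The list median of -0.01 became 0.01 and 0.02 without HFD replicate 2 and RD replicate 2. The 3 were Nfe2l2, the NRF2 factor itself, at -0.36, the cystine transporter gene Slc7a11 at -0.55 and the aldo-keto reductase gene Akr1c18 at -0.63 (adjusted p = 0.0251, 0.0290 and 0.0203). Among 31 basal and stem cell factors and signals 1 fell, Grhl1, a regulator of desmosomal cadherins in upper layers (log2 change -0.41, SE 0.08, adjusted p = 0.0304), and the list median was -0.22. This single call is near the 2.08% lower over all genes. At an unadjusted p under 0.05 there were 15 of the 31, against 3807 of 17472 over all genes. The count lower was 9 with DESeq2, 6 with a limit of 2% on the 4 keratins and 3 without HFD replicate 1, and 5 fell and 1 rose without HFD replicate 2.

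The leading 15 genes higher on HFD were Slc27a3, Slc4a8, Tnfrsf18, Upp2, Cdkn3, Nckap5, L3hypdh, Zranb2, Aknad1, Haghl, Rab13, Grik4, Celf4, Atf5 and Snap47, from 0.63 to 1.1 on the log2 scale. Slc27a3 (chr3:90385239-90389938, GRCm38, minus strand), a member of the fatty acid transport and acyl-CoA synthetase family, had the lowest p of the leading genes. It had 17.0, 15.3 and 16.0 CPM on RD and 36.8, 31.2 and 35.9 CPM on HFD, that is 16.1 ± 0.826 against 34.7 ± 3.03 CPM (2.15-fold, log2 change 1.1, SE 0.08, adjusted p = 0.00306). The gap between the diets was much wider than the spread within either.

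Tnfrsf18 (chr4:156026164-156028895, GRCm38, plus strand), the GITR receptor of the tumour necrosis factor family, had 5.36, 6.64 and 5.97 CPM on RD and 10.4, 14.2 and 11.4 CPM on HFD (log2 change 1.00, SE 0.13, adjusted p = 0.0161). It is also known from T cells, whose 13 listed markers summed to 39.1 to 43.7 CPM on RD and 37.8 to 50.6 CPM on HFD. Zranb2, a zinc finger protein of splicing, had 37.8, 33.3 and 37.0 CPM against 68.4, 53.5 and 58.0 CPM (log2 change 0.73, SE 0.09, adjusted p = 0.0161). Upp2, a uridine phosphorylase, had 5.08, 4.64 and 5.46 CPM against 8.50, 9.30 and 9.34 CPM (log2 change 0.84, SE 0.09, adjusted p = 0.0130). These 3 were separated by more than the spread within a diet.

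Atf5, a stress-response transcription factor, had 15.6, 15.8 and 15.4 CPM on RD and 28.4, 20.2 and 26.2 CPM on HFD (log2 change 0.68, SE 0.11, adjusted p = 0.0227). Cdkn3, a cyclin-dependent kinase phosphatase of dividing cells, had 9.21, 9.50 and 8.48 CPM against 19.8, 11.2 and 16.2 CPM (log2 change 0.80, SE 0.17, adjusted p = 0.0442). In both, HFD replicate 2 was the HFD library nearest to RD. Nckap5 was at 0.79, the RNA-binding protein gene Celf4 at 0.69, the kainate receptor subunit gene Grik4 at 0.69 and the bicarbonate transporter gene Slc4a8 at 1.09, with adjusted p-values of 0.0161, 0.0130, 0.0313 and 0.0221.

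Of 24 heat shock and unfolded protein response genes 2 rose, none fell and 21 lay above 0, with a median of 0.19, against 1.52% higher over all genes. Hspa5, the main chaperone of the endoplasmic reticulum, had 224, 218 and 233 CPM on RD and 277, 261 and 289 CPM on HFD (log2 change 0.29, SE 0.06, adjusted p = 0.0452). Pdia4, a disulfide isomerase there, had 23.4, 22.3 and 24.6 CPM against 36.4, 27.6 and 33.6 CPM (log2 change 0.47, SE 0.10, adjusted p = 0.0376). All HFD libraries of both genes were above all RD libraries. Other genes of that compartment did not pass, such as Sdf2l1 at 0.66 (adjusted p = 0.0746) and Hsp90b1 at 0.34 (adjusted p = 0.0806), and the stress response genes Herpud1 and Xbp1 were at -0.07 (adjusted p = 0.521) and 0.07 (adjusted p = 0.735). Without HFD replicate 2 the count was 7, and 0 without any other library, and it was 1 with median-ratio size factors, equal cells and UMIs or at most 4500 genes a cell. It was 6 with DESeq2 and with a limit of 2% on the 4 keratins.

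The 250 bases before the start of Hspa5 (chr2:34771840-34772089, plus strand, RefSeq, GRCm38.p6) are shown because they hold, in capitals, a full endoplasmic reticulum stress element, searched on both strands. Of 32851 such windows 37 (0.113%) hold one, and the letters are not in the window of Pdia4. The match describes letters only.
Hspa5: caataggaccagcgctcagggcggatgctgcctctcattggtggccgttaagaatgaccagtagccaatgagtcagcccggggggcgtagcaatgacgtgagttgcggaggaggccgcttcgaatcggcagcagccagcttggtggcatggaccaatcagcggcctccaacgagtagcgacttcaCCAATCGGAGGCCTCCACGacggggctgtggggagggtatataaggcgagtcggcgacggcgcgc

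Single members passed in several other lists. H2-K1, a class I histocompatibility gene, rose out of 25 interferon-stimulated genes, 21 of which lay above 0 (median 0.19). It had 111, 113 and 122 CPM on RD and 148, 137 and 155 CPM on HFD (log2 change 0.35, SE 0.07, adjusted p = 0.0335). Nr4a2, an immediate early nuclear receptor, rose out of 22 (log2 change 0.37, SE 0.08, adjusted p = 0.0439). The tetraspanin gene Cd151 rose out of 22 hemidesmosome and basement membrane genes (log2 change 0.37, SE 0.08, adjusted p = 0.0407), and Sdhd, a subunit of succinate dehydrogenase, out of 75 nuclear respiratory chain genes (log2 change 0.26, SE 0.06, adjusted p = 0.0451). Nr4a2, Cd151 and Sdhd did not pass with both keratin classes at equal UMIs, nor Sdhd with median-ratio size factors or with at most 4500 genes a cell. A single call among 22 to 75 genes is near the background of 3.61%.

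In the remaining lists edgeR called no gene. Their counts at an unadjusted p under 0.05 stand against 3807 of 17472 over all genes, and their sign counts against 48.4% below 0. Of 29 G2 and mitosis genes 27 lay above 0 (median 0.18, 13 at an unadjusted p under 0.05), with Bub1b at 0.39 (adjusted p = 0.0506) and Ccnb2 at 0.30 (adjusted p = 0.0782). Of 26 replication genes 19 lay above 0 (6 at an unadjusted p under 0.05), with Dut at 0.34 (adjusted p = 0.149) and Rrm2 at 0.39 (adjusted p = 0.166). Without HFD replicate 2 these 2 lists had 6 and 4 higher genes. The direction of both depended on the setting: with at most 4500 genes a cell 17 of the 29 mitosis genes lay below 0 (median -0.04), as did 18 in Krt1/Krt10-leading cells, and without HFD replicate 3 14 of the 26 replication genes did (median -0.01). Of 79 cytosolic ribosomal protein genes 69 lay below 0 with a median of -0.07 (7 at an unadjusted p under 0.05), among them Rps25 at -0.20 (adjusted p = 0.153) and Rpl23a at -0.20 (adjusted p = 0.163). Of the 13 mitochondrially encoded genes 12 lay above 0 (1 at an unadjusted p under 0.05), with mt-Nd6 at 0.46 (adjusted p = 0.0600) and mt-Co3 at 0.16 (adjusted p = 0.322), and HFD replicate 2 was the highest library for both. Among 22 replication-dependent histones (3 at an unadjusted p under 0.05) Hist1h1c was at 0.25 (adjusted p = 0.158) and Hist1h1a at 0.50 (adjusted p = 0.169). DESeq2 called 4 mitosis genes and 1 mitochondrially encoded gene higher, 1 ribosomal gene lower and none of the replication genes or histones.

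Signals that keratinocytes send to nerve endings and immune cells had no call in this edgeR test either. Their counts at an unadjusted p under 0.05 stand against 3807 of 17472 over all genes. Among 32 neurotrophic and axon guidance ligands (9 at an unadjusted p under 0.05), artemin, Artn, had 0.907, 1.00 and 0.962 CPM on RD and 0.611, 0.612 and 0.584 CPM on HFD and a log2 difference of -0.67 (adjusted p = 0.0532). Sema3d, a repulsive guidance cue, was at 0.43 (adjusted p = 0.0575). In both the diets did not overlap, as in 7 of the 32 genes and 27.7% of all genes tested, and neither passed the threshold. Among 15 chemokines (6 at an unadjusted p under 0.05) Ccl27a, the skin-homing chemokine, was at 0.50 (adjusted p = 0.0836) and Ccl5 at 1.7 (adjusted p = 0.0723). Among 20 interleukin 1 family and cytokine genes (10 at an unadjusted p under 0.05) Il1f6 was at -0.73 (adjusted p = 0.0900) and Il1f10 at -0.70 (adjusted p = 0.0978). Of 11 EGF receptor ligands and receptors (4 at an unadjusted p under 0.05) epiregulin, Ereg, had 57.8, 49.8 and 71.7 CPM against 45.1, 28.1 and 23.5 CPM, at -0.89 (adjusted p = 0.0639), and Erbb3 was at -0.23 (adjusted p = 0.0851). In these lists DESeq2 called 2 higher and 1 lower ligand, 1 higher chemokine, 1 higher and 2 lower cytokine genes and 1 lower gene of the EGF receptor list. A limit of 2% on the 4 keratins gave 3 higher ligands, 1 higher and 1 lower cytokine gene and 2 lower genes of the EGF receptor list. At most 4500 genes a cell gave 1 lower cytokine gene.

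Markers of other cells were checked in 12 lists with 101 genes, of which 59 were tested, none rose and 2 fell, near the background of 2.08% lower. These were Aqp5, the water channel of sweat glands (log2 change -0.33, SE 0.07, adjusted p = 0.0455), and Cst6, cystatin M/E of the follicle opening and upper epidermis (log2 change -0.36, SE 0.07, adjusted p = 0.0374). Neither passed with equal cells and UMIs, with both keratin classes at equal UMIs or with the keratin minimum at 2%. Aqp5 also did not pass with median-ratio size factors, with at most 4500 genes a cell or without any one library, and Cst6 passed without HFD replicate 2 but not when any of the other libraries was left out. DESeq2 called 2 sweat gland, 2 follicle and 1 neutrophil and mast cell marker lower, and none of these lists had a higher one. The 8 sweat gland and duct markers summed to 32.4 to 36.1 CPM on RD and 27.7 to 28.6 CPM on HFD with Dcpp1 and Foxi1 at 0, and the 9 follicle markers to 1085 to 1295 CPM on RD and 1051 to 1076 CPM on HFD. The 8 neutrophil and mast cell markers summed to 1.74 to 2.00 CPM and 1.18 to 1.46 CPM with Cma1, Ly6g, Mcpt4, Retnlg and Tpsb2 at 0. The 5 red blood cell markers summed to 0.296 to 1.27 CPM and 0.172 to 0.276 CPM. These 4 sums of the 12 lists were lower in every HFD library than in any RD library. Among single genes, 27.7% of all tested did not overlap between the diets in either direction. The part of these 4 sums in the results above was not tested. The other sums overlapped between the diets. Endothelial markers summed to 9.88 to 11.7 CPM on RD and 10.1, 17.6 and 16.0 CPM on HFD, and Pecam1 was at 0.69 (adjusted p = 0.173). Langerhans cell markers summed to 21.3 to 24.7 CPM on RD and 23.9 to 28.2 CPM on HFD with Lyz2 at 0. Fibroblast markers summed to 67.7 to 84.2 and 69.2 to 86.1 CPM, melanocyte markers to 4.89 to 7.09 and 6.32 to 8.70 CPM, and Merkel cell and adipocyte markers to at most 1.39 CPM. Skeletal muscle markers summed to 4.94 to 5.53 and 4.93 to 6.36 CPM with Myh4 at 0. The RNA quality list had no call among 7 tested (edgeR, 0 at an unadjusted p under 0.05, and 0 with DESeq2), with Malat1 at 0.11 (adjusted p = 0.582).

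**Figure D3:**
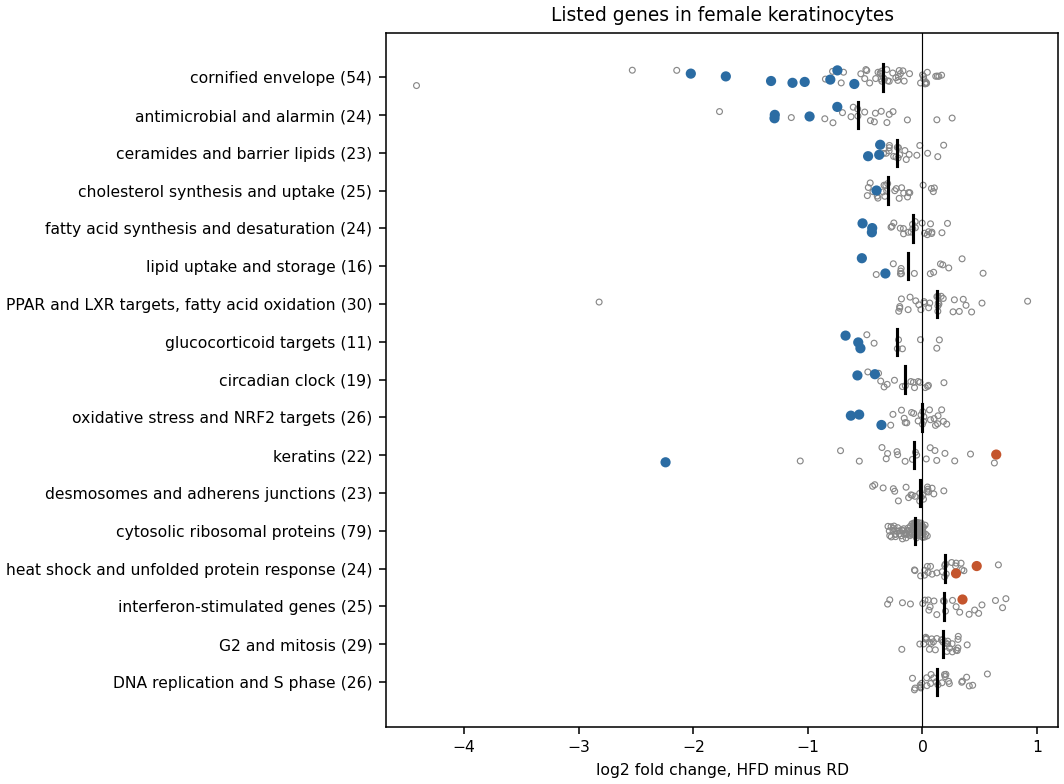
Log2 fold change HFD minus RD of every tested gene of 17 lists, 1 circle a gene. Filled circles are called genes and black lines are list medians, which are -0.56 for antimicrobial and alarmin genes and 0.19 for heat shock and unfolded protein response genes.

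Sums over all kept cells cannot tell fewer cells of a type from less RNA per cell, so the cells were split by their leading keratins. The Krt1/Krt10-leading class holds early and late cells together. Within it, fewer late cells cannot be told from less RNA per cell either. Cells with more UMIs of Krt5 and Krt14 than of Krt1 and Krt10 were 51.2, 49.2 and 48.2% of kept cells on RD and 54.0, 57.6 and 52.7% on HFD. Every HFD library was above every RD library (49.5 ± 1.51% against 54.8 ± 2.56%, a difference of 5.26 percentage points), and the two-sided exact permutation p was 0.1, the smallest that 3 libraries against 3 allow. The same 4 keratins chose the kept cells, so this comparison is a description. With a limit of 2% on the 4 keratins the shares were 34.5, 35.3 and 29.6% on RD and 40.6, 44.3 and 39.0% on HFD, a difference of 8.21 points, so the share depends on the keratin limit that defined the cells. Between 3.89 and 4.83% of the cells of a library lay near the dividing line, with keratin sums within 20% of each other. The 4 keratins themselves did not pass in the sums: Krt1 was at -0.30 (adjusted p = 0.172), Krt10 at -0.22 (adjusted p = 0.341), Krt5 at 0.11 (adjusted p = 0.438) and Krt14 at 0.20 (adjusted p = 0.207). Because they chose the kept cells, these values are a description too. HFD replicate 2 was the lowest library for Krt1 and Krt10.

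The called genes differed in the class in which they were more abundant. On RD, 69.6% of the genes lower on HFD had more CPM in Krt1/Krt10-leading than in Krt5/Krt14-leading cells, against 26.1% of all genes measured in both classes and 11.8% of the genes higher on HFD. With both classes brought to the same number of UMIs in each library, an alternative added after the data were seen, 355 genes were called, 333 of them among the 630. The cornified envelope list then had 3 lower genes and a median of -0.24, the antimicrobial list 3 and -0.45, the ceramide list 0 and -0.12, and the glucocorticoid list 3 and -0.23. The fatty acid synthesis and cholesterol lists had 0 lower genes (medians -0.05 and -0.20), the lipid uptake and clock lists 1 each and the oxidative stress list 2. Krt8, Cd151, Nr4a2 and Sdhd no longer passed, and 10 of 29 mitosis genes lay below 0 (median 0.09). Of the 68 called genes named, 42 passed.

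Within the Krt5/Krt14-leading cells 126 of 16066 genes (0.784%) passed, 70 higher and 56 lower, and within the Krt1/Krt10-leading cells 494 of 15397 (3.21%), 251 higher and 243 lower. Of the 266 genes higher in all cells, 264 were tested in the Krt5/Krt14 class and all 264 lay above 0 there, as did 262 of 263 in the Krt1/Krt10 class. Of the 364 lower genes, 355 of 359 and 362 of 362 lay below 0. The same libraries gave both classes and the whole, so these counts are a description. In both classes 52 of the higher and 33 of the lower genes passed, and in neither class 81 and 141. The 126 became 0 without HFD replicate 1, RD replicate 1 or RD replicate 2 (edgeR, 2595, 1964 and 2149 genes at an unadjusted p under 0.05), 1 without HFD replicate 3, 3 without RD replicate 3 and 387 without HFD replicate 2. The 494 became 0 without RD replicate 1 or RD replicate 2 (edgeR, 2418 and 2646 genes at an unadjusted p under 0.05), 4 without RD replicate 3, 16 without HFD replicate 3 and 1016 without HFD replicate 2.

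Slc27a3 rose in both classes, by 0.91 on the log2 scale in Krt5/Krt14-leading and 1.38 in Krt1/Krt10-leading cells (adjusted p = 0.00947 and 0.00577). Zranb2, Nckap5, Upp2, Tnfrsf18, Haghl, Atf5, Celf4, Snap47 and H2-K1 also rose in both, and Wfdc17, Angptl2, Pdk1, Gpam, Rptn, Mt1, Mt2 and Fkbp5 fell in both. How much of the Rptn count in Krt5/Krt14-leading cells is RNA from other cells was not tested. Wfdc18 fell in Krt1/Krt10-leading cells (-0.73, adjusted p = 0.0162) and was at -0.35 in Krt5/Krt14-leading cells (adjusted p = 0.342). Serpinb3a was at -0.83 and -0.26 in the same order (adjusted p = 0.0180 and 0.595), and Skint1 at -0.73 and -0.33 (adjusted p = 0.0176 and 0.364). Whether the classes differed was not tested. Hspa5 was at 0.34 in Krt1/Krt10-leading and 0.28 in Krt5/Krt14-leading cells (adjusted p = 0.0282 and 0.0970).

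**Figure D4:**
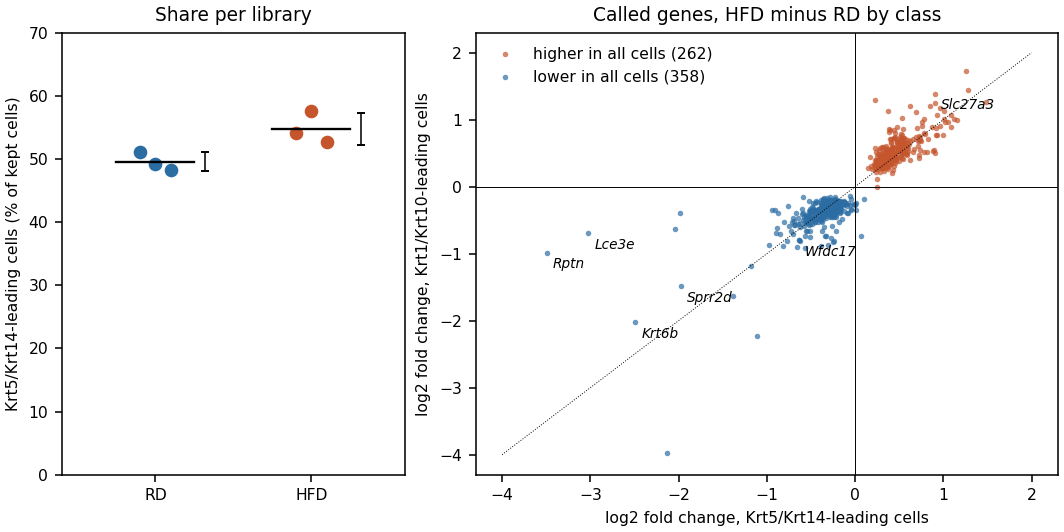
Left, Krt5/Krt14-leading cells as a percentage of kept cells in each female library, with mean and SD, where the 3 HFD libraries (52.7 to 57.6%) lie above the 3 RD libraries (48.2 to 51.2%). Right, log2 fold change HFD minus RD in the 2 keratin classes for the 620 called genes tested in both, with nearly all points on the same side of 0 in both classes.

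Dividing cells were counted by a UMI of Mki67 or Top2a, after each cell was thinned to 5000 UMIs and shallower cells (509 to 1116 a library) were left out. Their share was 20.6, 25.3 and 20.9% on RD and 24.1, 20.4 and 24.6% on HFD, so the diets overlapped (22.3 ± 2.63% against 23.1 ± 2.28%, two-sided exact permutation p = 1, smallest possible 0.1). Without thinning the shares were 28.9, 31.1 and 28.5% on RD and 32.1, 28.7 and 32.6% on HFD. After thinning, 27.2 to 37.5% of Krt5/Krt14-leading cells were positive and 11.1 to 14.2% of Krt1/Krt10-leading cells, most of which no longer divide. Over all kept cells of these classes, the shallower ones included, the median depths were 7619 to 11237.5 and 10637 to 14689 UMIs. How much of the share in Krt1/Krt10-leading cells is free RNA was not tested.

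The same contrast in males asks whether the diet difference is shared between the sexes. In male keratinocytes 1 of 14835 genes (0.00674%) passed the edgeR test, with 1097 at an unadjusted p under 0.05. Of the 630 genes, 616 were tested there. The 255 higher genes had a median of -0.02 on the log2 scale in males and 115 lay above 0, and the 361 lower genes had a median of 0.04 and 145 lay below 0. A model of all 12 libraries tested the difference itself, the diet by sex interaction, and 137 of 17740 genes (0.772%) passed, 64 with a higher and 73 with a lower diet difference in females, 104 of them among the 630. With median-ratio size factors the split was 50 and 81. Male counts came from another Cell Ranger version than female counts according to the headers (6.1.0 and 7.2.0), so sex and software cannot be told apart. The count was 16 without male RD replicate 3, 21 without male HFD replicate 2, 22 without male HFD replicate 1, 29, 36 and 59 without female RD replicates 3, 2 and 1, 38 without female HFD replicate 3 and 429 without male RD replicate 2.

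Slc27a3 had an interaction of 1.52 (SE 0.14, adjusted p = 0.000681). On the scale of the joint fit its male libraries had 15.9, 18.6 and 21 CPM on RD and 15.1, 12.8 and 14.1 CPM on HFD (log2 change -0.40, adjusted p = 0.493). Wfdc17 had 585, 272 and 334 CPM on RD and 795, 1022 and 554 CPM on HFD in males (log2 change 0.99, adjusted p = 0.509) and an interaction of -1.94 (adjusted p = 0.0220). Neither male difference passed, while both interactions did. Wfdc18 was at 1.09 in males (adjusted p = 0.203) with an interaction of -1.93 (adjusted p = 0.0103), and Serpinb3a at 0.84 (adjusted p = 0.506) with -1.81 (adjusted p = 0.0224). For Mt1, Mt2 and Fkbp5 the interaction did not pass (adjusted p = 0.121, 0.0810 and 0.118), nor for Rptn, Sprr2d and Lce3e (adjusted p = 0.151, 0.0763 and 0.0869), which does not show equal diet differences in the sexes. In the ceramide list 1 of 23 genes had a called interaction (against 0.772% of all genes), Alox12b (-0.83, adjusted p = 0.0272). It was 1 of 54 in the cornified envelope list, the involucrin gene Ivl (adjusted p = 0.0204), and 1 of 19 in the clock list, Per2 (adjusted p = 0.0483), neither of which passed in females alone.

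**Figure D5:**
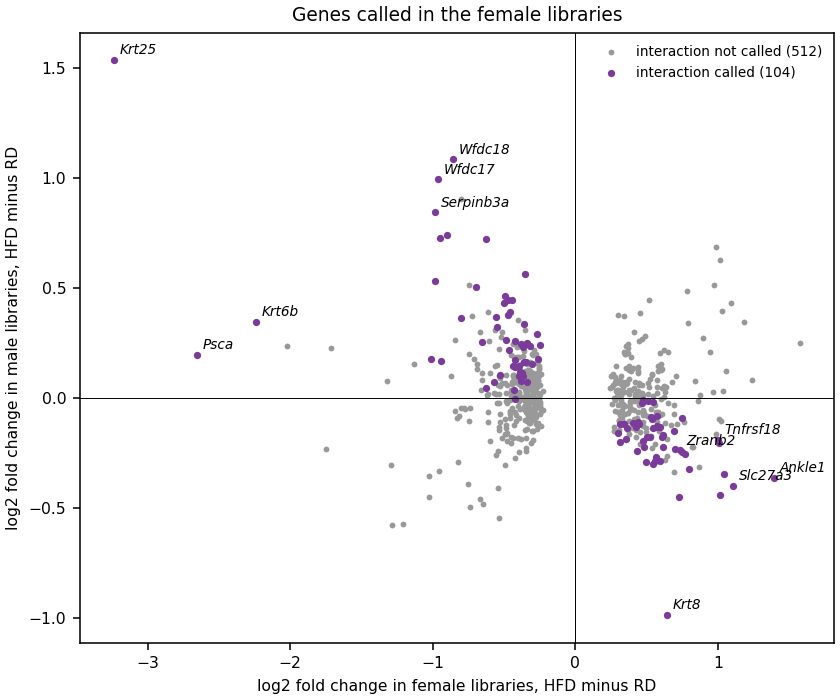
Log2 fold change HFD minus RD in female libraries against male libraries for the 616 genes called in females and tested in both. Purple points are the 104 with a called interaction, among which Slc27a3 lies at 1.1 in females and -0.40 in males and Wfdc17 at -0.96 and 0.99.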

How the data were processed

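Dissociated paw epidermis was captured with 10x Genomics 3' v3.1 chemistry, and the authors deposited raw UMI counts per gene and called cell (mm10 reference of GRCm38), made with Cell Ranger 7.2.0 for female and 6.1.0 for male libraries per the file headers. The text of the deposit names 7.2.0 for all and Seurat 5.0.0 for later steps. Whether intronic reads were counted is not given in the sources used here. The filters named in the report were applied to the deposited counts, no doublet caller was run, and UMIs were summed per library. Sums were tested with edgeR 4.0.16 (filterByExpr, TMM, quasi-likelihood F test, Benjamini-Hochberg adjustment over all genes), HFD minus RD within a sex, and with a diet by sex term over 12 libraries. The code was checked on simulated data. Shares of cells were compared by two-sided exact permutation tests. Levels are TMM-scaled CPM, and list sums are unscaled CPM. Genes named were up to 15 a direction by fold change (adjusted p under 0.05, mean of at least 5 CPM, no overlap, no predicted-gene symbols), called members of 42 gene lists or the 2 members of lowest p, the filter genes, and up to 5 a direction by interaction. Other list members named without a call were chosen after their values were seen. A few list members are not reported here. Members and lists were chosen with earlier results of these data known. For a symbol with more than 1 identifier the more abundant was used. Positions are from GENCODE M21, promoters from RefSeq (GRCm38.p6). Alternatives were median-ratio size factors, DESeq2 1.42.0, no count filter, single libraries left out, a replicate block, other cell filters, and equal cells and UMIs. Each library is 1 mouse. Female libraries held 106982080 or more UMIs, and with equal cells and UMIs 61 of the 68 named called genes passed.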

Additional observations from a re-analysis of the deposited data

Results flagged for a closer look

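The diet difference in keratinocytes differed between females and males by the interaction test (edgeR, adjusted p under 0.05) for 137 genes, and 22 named ones are given here with the female minus male difference of the 2 log2 changes. Among the genes higher on HFD in females it was 1.52 for Slc27a3, 1.21 for Tnfrsf18, 1.14 for Cdkn3, 0.86 for L3hypdh, 0.99 for Zranb2, 1.65 for Krt8 and 1.78 for Ankle1. Among those lower on HFD in females it was -2.57 for Krt6b, -1.81 for Serpinb3a, -1.94 for Wfdc17, -1.93 for Wfdc18, -1.15 for Skint1, -0.83 for Alox12b, -0.61 for Gpam, -1.33 for Akr1c18, -4.76 for Krt25 and -2.83 for Psca. For 5 genes that did not pass in females alone it was -1.28 for Il1f6, -1.28 for Ereg, -2.20 for Angptl7, 1.48 for Aldh1b1 and 1.6 for Kcnn1. None of these 22 passed in males alone. Sex and the Cell Ranger version of the counts cannot be told apart in this test, and groups of 3 libraries were not searched for single outlying values.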

How the results depend on the processing

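The 630 genes called in all female keratinocytes became 1462 with DESeq2 (625 shared), 1113 with a limit of 2% on the 4 keratins, 355 with both keratin classes at equal UMIs and 0 to 1150 with single libraries left out. The 126 of the Krt5/Krt14 class became 591 with DESeq2, 203 with no filter on low counts, 66 at 2% keratins, 56 with at most 4500 genes a cell and 0 to 387 with single libraries left out. The 494 of the Krt1/Krt10 class became 1060, 783 and 0 to 1016 with DESeq2, no filter and single libraries left out. The 137 interactions became 768 with DESeq2, 272 at 2% keratins, 238 with no filter, 49 with at most 4500 genes and 16 to 429 with single libraries left out. The cause was not tested. Median-ratio size factors, equal cells and UMIs, at least 1000 genes a cell and up to 10% mitochondrial UMIs moved none of these 4 counts by over 1.5 times. Lists moved more: fatty acid synthesis fell from 3 to 1 called gene with median-ratio size factors and with 10% mitochondrial UMIs. Heat shock fell from 2 to 1 with median-ratio size factors, equal cells and UMIs and at most 4500 genes a cell. The respiratory chain fell from 1 to 0 with median-ratio size factors and with at most 4500 genes a cell. With DESeq2 and at 2% keratins, the genes lower were 9 and 8 for ceramides (3 in the report), 5 and 5 for fatty acid synthesis (3), 5 and 9 for antimicrobial genes (4) and 14 and 8 for the cornified envelope (8).

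Signs turned for these single values, none of which passed, beside the list medians given in the report. Il1f10 was at 0.13 and Acta1 at -0.36 with 2% keratins, Krt5 at -0.018 with classes at equal UMIs, Acta1 at -0.29 to 0.75 and Retn at -0.037 to 0.54 with single libraries left out. The difference in the share of dividing cells was -0.35 percentage points with at most 4500 genes and -0.058 to 2.30 with single libraries left out. The difference in Krt5/Krt14-leading cells was 5.26 points, 8.21 at 2% keratins and 3.83 to 6.32 with single libraries left out.

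With the replicate number as a block the counts were 29, 13, 45 and 80 for all cells, the Krt5/Krt14 class, the Krt1/Krt10 class and the interaction. The samples share only a number, which for HFD is that of the labels, while the deposited files number these libraries 4 to 6: the correlations of same-numbered libraries' deviations were -0.21, -0.14 and 0.10, and not every library correlated best with its own number. With 3 mice a diet, calls near the threshold depend on each mouse.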

Other observations

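The genes lower on HFD had a median of 20917.5 intron bases and 4808.5 exon bases in GENCODE M21, and the higher genes 10887 and 3309.5, against 16466 and 3755 over 17460 tested genes with an annotation. Their median levels were 25.5 and 11.3 CPM against 6.74 CPM over all genes tested. Whether intronic reads were counted is not given in the sources used here, and the part of gene length in the calls was not tested. The gene called in male keratinocytes was Spink6, a Kazal-type inhibitor of skin kallikreins, at a log2 change of -3.41 (edgeR, adjusted p = 0.00626).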
